A study of Rattus norvegicus with 325 samples.

Results

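Expression of 8 glycogen metabolism genes, of 17315 distinct gene symbols in the count files, was followed across 4 muscles and 7 ages of the rat. The genes were chosen by name: Gys1, Pygm, Phka1, Phkg1, Gyg1, Gbe1, Ppp1r3a and Ppp1r3c. All 8 were found, each on a single line of the files, and all 8 passed the filter on low counts in every muscle. The samples were 325 bulk RNA-seq libraries from male Sprague Dawley rats, an outbred stock, with no genetic or drug treatment in any group. Diaphragm (83 libraries), gastrocnemius (73), soleus (84) and tibialis anterior (85) were sampled at 7 ages, namely 6, 9 and 12 months, then 18 and 21, and lastly 24 and 27. Each of the 28 groups of muscle and age held 9 to 13 libraries. Rats were anesthetized and exsanguinated, and the tissues of an age group were collected on a single day, so age and collection day cannot be told apart.

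Glycogen is the branched glucose polymer that muscle keeps as fuel for contraction. Glycogenin, encoded by Gyg1, primes a new particle, glycogen synthase (Gys1) extends its chains and the branching enzyme (Gbe1) adds the branch points. Muscle glycogen phosphorylase (Pygm) releases glucose 1-phosphate from the chain ends and is switched on by phosphorylase kinase, a complex whose muscle regulatory alpha subunit is encoded by Phka1 and whose muscle catalytic gamma subunit is encoded by Phkg1. Ppp1r3a and Ppp1r3c encode subunits that bring protein phosphatase 1 to the glycogen particle, where it acts on synthase and phosphorylase. Fast glycolytic fibers are known for their high capacity for glycogen breakdown, and the soleus of the rat for its slow oxidative fibers.

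Total counts ranged from 17.6 M to 85.3 M (M, mega) per library, with a median of 31.9 M. The fiber type of the muscles was checked with myosin heavy chain genes at 6 months. Myh7, the slow myosin, had a median of 47514 CPM (the count of a gene scaled to a common library size after TMM normalization) in the soleus, while that of the tibialis anterior was 2062. Myh4, the fastest myosin, had a median of 87432 CPM in the tibialis anterior and 8.41 in the soleus. The running numbers of the libraries fall into 3 series. All gastrocnemius libraries carry the first, and the 12-month libraries of the other muscles carry the third together with 1 library of 21 months in each, so those contrasts cannot be told apart from the series. A common direction of variation among libraries, called the library axis here, is the first principal component of gene expression after removal of age means, computed without the 8 genes, with the weights of the gastrocnemius for the other muscles and those of the diaphragm for the gastrocnemius, and scaled to an SD of 1 within a muscle. On it some libraries stood apart from the rest, most of all a diaphragm library of 18 months at -5.96, where the diaphragm medians of the 7 ages lay between -1.54 and 0.53. In bulk muscle, a lower share of a fiber type and less RNA per fiber cannot be told apart.

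The promoters of 4 of the genes are printed because Pygm, Phka1 and Phkg1 varied together over libraries and because Gbe1 was called lower in the soleus and in no other of the 4 muscles. Each is the 250 bases before the gene start in RefSeq (GRCr8, a build used only for these sequences), at chr1:213119555-213119804 on the plus strand, chrX:71778122-71778371 on the minus strand, chr12:32474827-32475076 on the plus strand and chr11:22181026-22181275 on the plus strand. Capitals mark matches, on either strand, to the E-box (CANNTG, bound by MyoD-type factors among others), the CCAAT box, the GC box (GGGCGG) or the TATA box (TATAAA), and overlapping matches are all marked.

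Pygm: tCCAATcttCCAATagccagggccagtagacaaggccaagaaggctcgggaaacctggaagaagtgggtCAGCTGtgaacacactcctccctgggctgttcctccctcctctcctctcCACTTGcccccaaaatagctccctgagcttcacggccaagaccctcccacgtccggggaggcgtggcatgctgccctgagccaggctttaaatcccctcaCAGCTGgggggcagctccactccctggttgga

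Phka1: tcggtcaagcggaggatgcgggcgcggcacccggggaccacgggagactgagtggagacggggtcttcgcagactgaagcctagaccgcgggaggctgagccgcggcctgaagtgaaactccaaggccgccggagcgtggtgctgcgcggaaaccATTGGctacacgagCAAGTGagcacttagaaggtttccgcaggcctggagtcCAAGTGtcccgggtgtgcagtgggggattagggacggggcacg

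Phkg1: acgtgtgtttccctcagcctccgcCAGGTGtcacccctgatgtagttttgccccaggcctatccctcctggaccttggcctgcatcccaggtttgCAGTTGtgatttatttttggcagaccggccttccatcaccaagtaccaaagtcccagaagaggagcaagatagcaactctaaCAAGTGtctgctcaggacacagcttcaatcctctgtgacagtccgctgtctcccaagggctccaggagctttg

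Gbe1: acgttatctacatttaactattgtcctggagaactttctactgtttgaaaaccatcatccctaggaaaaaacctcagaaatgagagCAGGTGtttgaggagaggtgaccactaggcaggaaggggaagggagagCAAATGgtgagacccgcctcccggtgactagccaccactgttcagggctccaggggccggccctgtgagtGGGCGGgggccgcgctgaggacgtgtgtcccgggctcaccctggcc

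Of the 33469 upstream sequences in the RefSeq table, 65.5% hold CANNTG, 34.0% CCAAT, 30.5% GGGCGG and 12.9% TATAAA. An E-box match was present in 8 of the 8 genes, with 3 matches each in Pygm and Phkg1. CCAAT was present in 4 genes, namely Gys1 (4 matches), Pygm (2), Phka1 and Ppp1r3c (1 each). GGGCGG was present in Gys1, Gyg1 and Gbe1, and TATAAA in Ppp1r3a alone of the 8. The upstream sequence of Ppp1r3a had the lowest GC content of the 8 (36.8%), and that of Gyg1 the highest (72.4%). AAGGTCA, the letters bound by estrogen-related receptors, was found in 0 of these 8 windows and in 3.99% of all. These matches are letters in a window and were not tested for binding.

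At 27 months most of the glycogen genes were lower in the limb muscles, while in the diaphragm the phosphatase subunits Ppp1r3a and Ppp1r3c alone were called. Of 32 combinations of gene and muscle, 17 were lower than at 6 months and 0 were higher (of all genes tested, the share higher was 17.2% for the tibialis anterior, 15.1% for the gastrocnemius, 9.21% for the soleus and 3.27% for the diaphragm), at an adjusted p under 0.05 and a change of over 1.5-fold (limma-voom, Benjamini-Hochberg over all genes tested). In the gastrocnemius 5 of the 8 genes were lower, against 7.76% of all genes tested. In the soleus 5 of 8 were lower, against 5.78% of all, in the tibialis anterior 5 of 8, against 10.4%, and in the diaphragm 2 of 8, against 4.25%. The median log2 change of the 8 genes was -0.94 in the gastrocnemius, -0.66 in the soleus, -1.06 in the tibialis anterior and -0.018 in the diaphragm, where the median over all genes tested was 0.042, 0.019, 0.015 and 0.0026. At 9 and 12 months 0 of the 8 genes were called in any of the 4 muscles, where few genes were called in either direction. The shares of all genes called at 9 and 12 months were 0.00851% and 0.196% for the tibialis anterior, 0.143% and 0.885% for the gastrocnemius, 0.123% and 0.353% for the soleus, and 0.108% and 0.532% for the diaphragm.

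**Figure D1:**
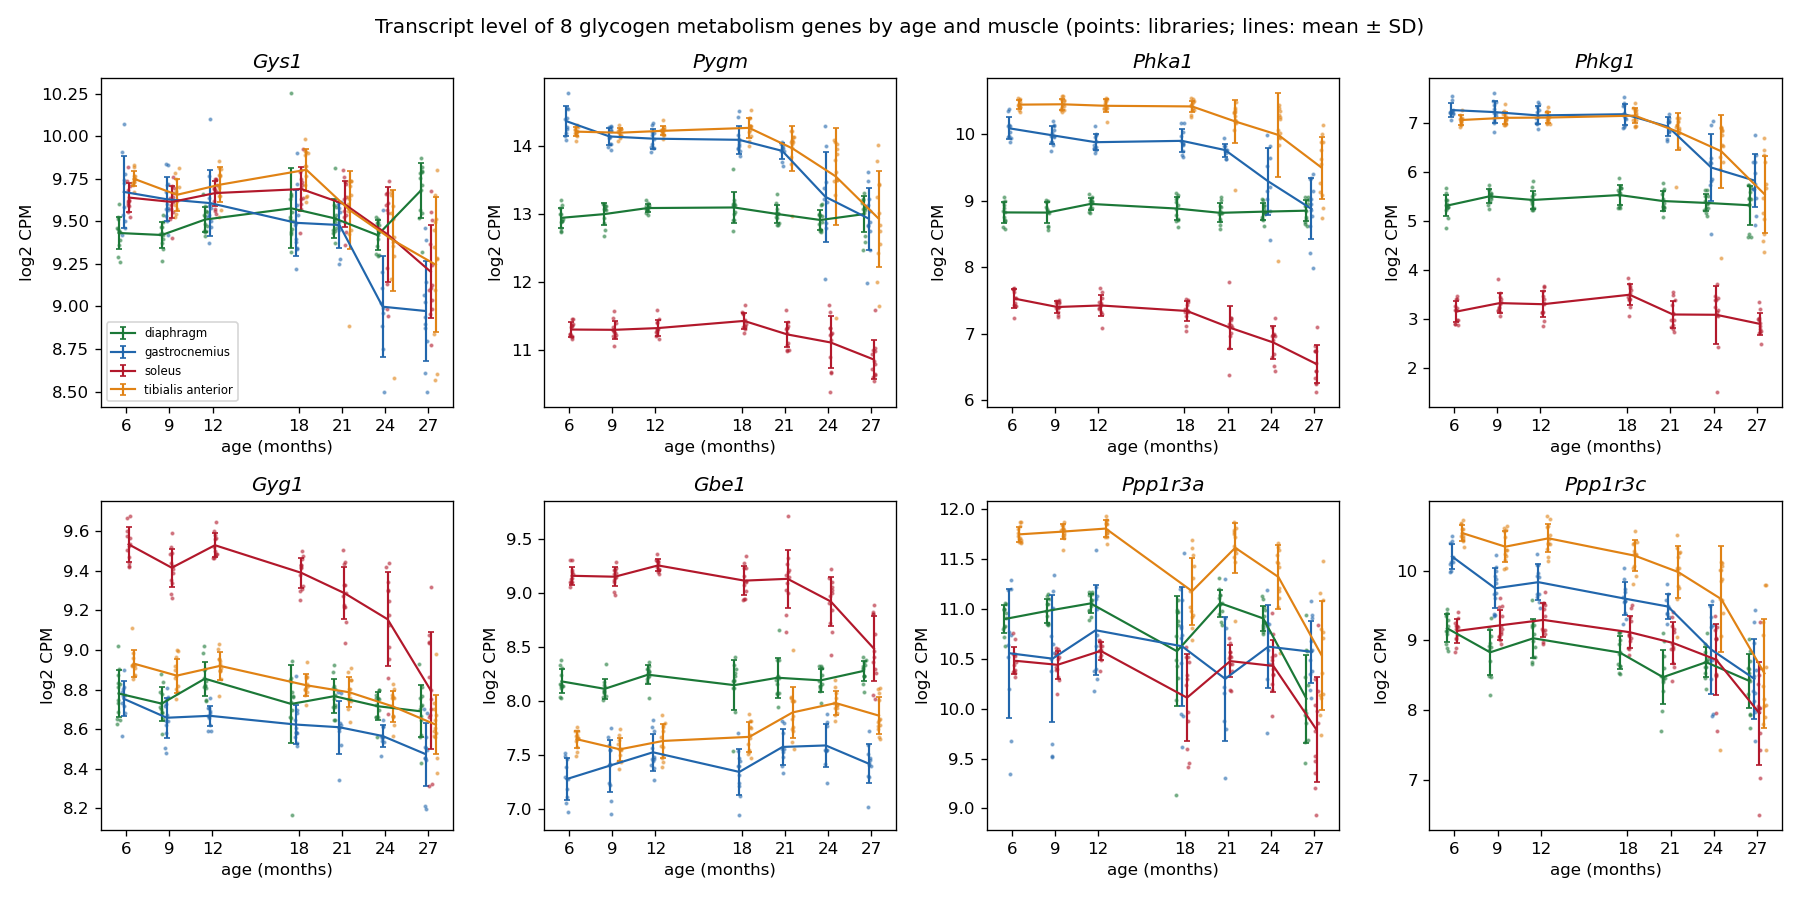
Level of each of the 8 genes against age in months, as log2 CPM with 1 scaling over all libraries, with a point per library and lines through the group means ± SD, one color per muscle. Pygm, Phka1 and Phkg1 lay lowest in the soleus throughout, and in the gastrocnemius and tibialis anterior they came down to or toward the diaphragm by 27 months.

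Pygm, the phosphorylase itself, fell in the fast limb muscles. In the tibialis anterior the 12 libraries of 6 months ran from 14969 to 17607 CPM with a median of 16477, and those of 27 months from 2802 to 14704 with a median of 6738. All 12 old libraries lay below all 12 young ones, but they spread widely: the SD of log2 CPM was 0.066 at 6 months and 0.71 at 27 months. The log2 change was -1.26 (SE 0.16, adjusted p = 1.02e-10), which is a 2.39-fold decrease. In the gastrocnemius Pygm went from 15649 to 24071 CPM (median 18716, n = 10) to 3637 to 11346 (median 6816, n = 11), again with no overlap, and the log2 change was -1.43 (SE 0.14, adjusted p = 4.94e-14). In the soleus the medians were 2762 and 2031 CPM, 11 of the 12 old libraries lay below the young range, and 1 lay above it. The soleus log2 change of -0.42 (SE 0.084, adjusted p = 1.56e-05) stayed under 1.5-fold. In the diaphragm the medians were 8731 and 9624 CPM, the ranges overlapped, and the log2 change was 0.014 (SE 0.066, adjusted p = 0.887).

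Phkg1, the catalytic subunit of the kinase that activates phosphorylase, followed Pygm in those muscles. In the tibialis anterior its 6-month libraries ran from 105 to 134 CPM (median 117) and its 27-month libraries from 18.3 to 92.8 (median 41.5), without overlap and at a log2 change of -1.52 (SE 0.18, adjusted p = 3.02e-12). In the gastrocnemius the ranges were 121 to 162 CPM (median 136) and 27.4 to 98.4 (median 49.0), and the log2 change was -1.42 (SE 0.15, adjusted p = 1.26e-12). Phkg1 was low in the soleus, where medians of 10.2 and 8.41 CPM overlapped and the log2 change was -0.22 (SE 0.12, adjusted p = 0.122). In the diaphragm the medians were 44.6 and 47.1 CPM and the log2 change was -0.022 (SE 0.090, adjusted p = 0.867).

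Phka1, the regulatory subunit of the same kinase, fell in all 3 limb muscles. The gastrocnemius ranges were 857 to 1168 CPM (median 963) and 228 to 618 (median 446), with a log2 change of -1.20 (SE 0.12, adjusted p = 1.11e-13). In the tibialis anterior they were 1125 to 1303 CPM (median 1206) and 377 to 1005 (median 674), and the log2 change was -0.93 (SE 0.13, adjusted p = 1.00e-09). In the soleus they were 169 to 230 CPM (median 207) and 78.5 to 155 (median 103). Old and young libraries did not overlap there either, and the log2 change was -0.97 (SE 0.083, adjusted p = 4.84e-17). The diaphragm medians were 516 and 505 CPM, and the log2 change was -0.015 (SE 0.059, adjusted p = 0.863).

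Gys1, of the genes of synthesis, was called in the gastrocnemius alone of the 4 muscles. It fell in the gastrocnemius, from a range of 623 to 926 CPM (median 729) to 325 to 642 (median 441), and 10 of 11 old libraries lay below the young range. That log2 change of -0.69 (SE 0.089, adjusted p = 6.09e-10) became -0.41 under total-count scaling, short of 1.5-fold. In the soleus (-0.42, SE 0.068, adjusted p = 1.47e-07) and tibialis anterior (-0.49, SE 0.087, adjusted p = 7.48e-07) the log2 changes were under 1.5-fold. In the diaphragm Gys1 was at 697 to 861 CPM at 6 months and 726 to 1021 at 27 months, with medians of 786 and 919. 8 of the 12 old diaphragm libraries lay above all young ones, with a log2 change of 0.21 (SE 0.048, adjusted p = 0.000253) that did not reach 1.5-fold. Over diaphragm libraries, after removal of age means, Gys1 had Pearson's r of -0.61 with the library axis (Spearman's rho -0.26, adjusted permutation p = 0.005, n = 83). Without the 2 libraries farthest from the median r was -0.23. The axis median of the diaphragm was 0.25 at 6 months and -1.54 at 27 months.

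Gyg1 and Gbe1, the priming and branching genes, fell in the soleus. Gyg1 ran there from 765 to 906 CPM (median 824) at 6 months and from 359 to 715 (median 488) at 27 months, a log2 change of -0.72 (SE 0.065, adjusted p = 4.91e-16). Gbe1 ran from 593 to 700 CPM (median 629) and from 291 to 535 (median 385), a log2 change of -0.66 (SE 0.074, adjusted p = 3.31e-12). In both genes all 12 old soleus libraries lay below all young ones. Under total-count scaling, which moved the median of all genes in the soleus by 0.15 at 27 months, the log2 changes were -0.57 and -0.51 and neither was called. Outside the soleus the Gyg1 changes were -0.27 in the gastrocnemius, -0.30 in the tibialis anterior and -0.13 in the diaphragm, and the first 2 turned to 0.013 and 0.019 under total-count scaling. The Gbe1 log2 change was 0.15 in the gastrocnemius (adjusted p = 0.132). It was 0.23 in the tibialis anterior (adjusted p = 0.000781), where 8 of 12 old libraries lay above the young range, and 0.058 for the diaphragm (adjusted p = 0.451).

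Ppp1r3c, a glycogen-targeting subunit of protein phosphatase 1, fell in all 4 muscles. In the tibialis anterior it went from 1117 to 1468 CPM (median 1283) to 152 to 791 (median 268), a log2 change of -1.99 (SE 0.19, adjusted p = 6.43e-16) and a 3.96-fold decrease. In the gastrocnemius it went from 917 to 1314 CPM (median 1003) to 170 to 631 (median 279), with a log2 change of -1.75 (SE 0.16, adjusted p = 8.56e-15). Young and old ranges did not overlap in either muscle. In the soleus the ranges were 509 to 756 CPM (median 641) and 102 to 690 (median 292), and 11 of 12 old libraries lay below the young range, with a log2 change of -1.16 (SE 0.16, adjusted p = 9.60e-10). In the diaphragm they were 521 to 787 CPM (median 650) and 231 to 550 (median 404), with a log2 change of -0.80 (SE 0.12, adjusted p = 7.67e-08). Against 9 months in place of 6 months the diaphragm change was -0.46 and was not called.

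Ppp1r3a, the other targeting subunit, fell in 3 muscles and varied widely in the gastrocnemius. In the tibialis anterior it went from 2823 to 3270 CPM (median 2949) to 741 to 2552 (median 1310), a log2 change of -1.19 (SE 0.12, adjusted p = 1.52e-14). In the diaphragm it went from 1794 to 2398 CPM (median 2217) to 746 to 2219 (median 1085), a log2 change of -0.84 (SE 0.12, adjusted p = 1.42e-08). In the soleus the medians were 1567 and 1018 CPM, and the log2 change was -0.67 (SE 0.12, adjusted p = 1.30e-06), which became -0.53 under total-count scaling and was then not called. The gastrocnemius ranges were 562 to 2269 CPM at 6 months and 992 to 1931 at 27 months, fully overlapping, with a log2 change of 0.017 (SE 0.24, adjusted p = 0.955). Ppp1r3a moved with the library axis: after removal of age means, Pearson's r was 0.90 in the diaphragm (Spearman's rho 0.77, n = 83), 0.92 in the gastrocnemius (rho 0.90, n = 73), 0.71 in the soleus (rho 0.61, n = 84) and 0.57 in the tibialis anterior (rho 0.51, n = 85). The permutation p of these r, adjusted over 128 relations of genes with scores, ranged up to 0.00083, and without the 2 libraries farthest from the median the r were 0.87, 0.91, 0.64 and 0.50. With the axis as a covariate, an alternative chosen after the data were seen, the changes were -0.33 in the diaphragm and -0.43 in the soleus, and neither was called. The gastrocnemius change was then -0.46 (adjusted p = 6.08e-05) and also not called, while the tibialis anterior call was kept. The diaphragm libraries of 27 months had a median of -1.54 on the axis and those of 6 months 0.25. The part of the axis in the Ppp1r3a changes was not tested further.

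**Figure D2:**
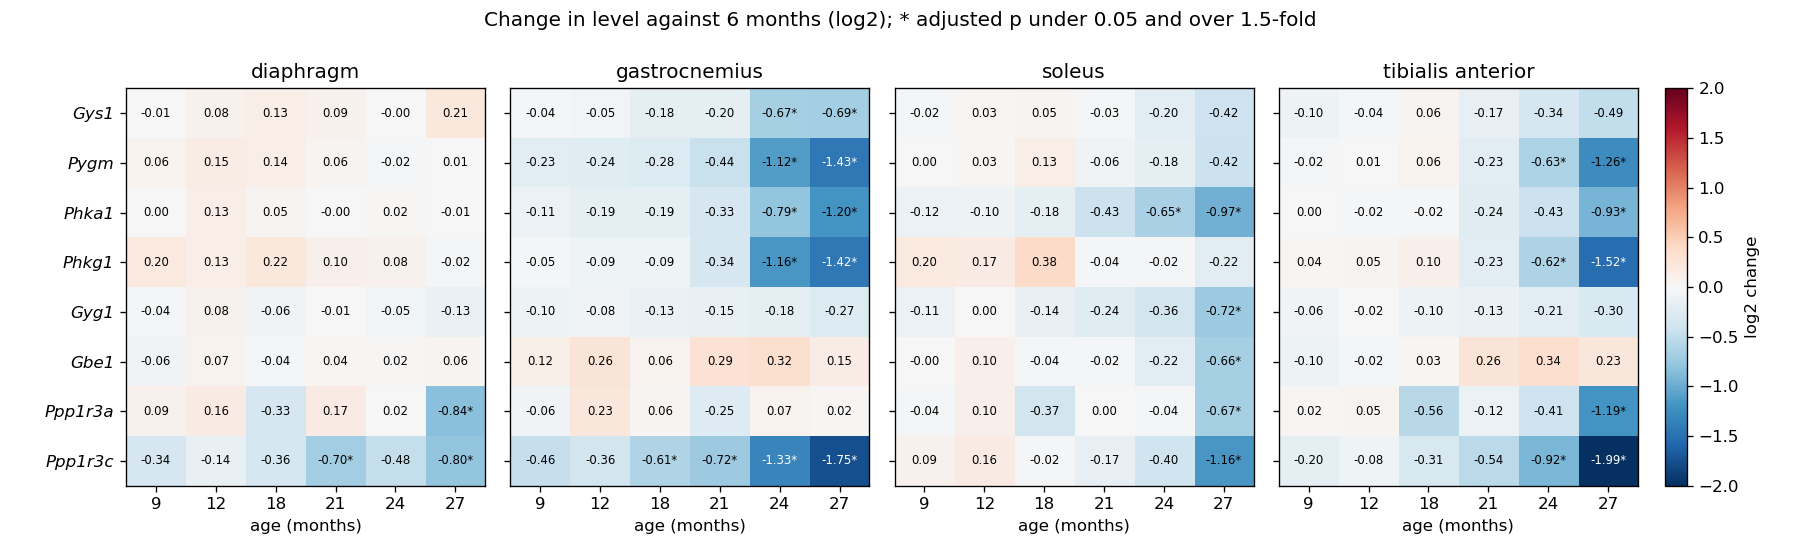
Log2 change of each gene (rows) at each older age (columns, months) against 6 months, one panel per muscle, with an asterisk at calls (adjusted p under 0.05 and over 1.5-fold). The most calls were at 27 months (2 in the diaphragm and 5 in each limb muscle), and Ppp1r3c was the one gene of the 8 called at 18 or 21 months.

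The changes came late. At 24 months 5 genes were lower in the gastrocnemius, where 7.41% of all genes were, namely Ppp1r3c (-1.33), Phkg1 (-1.16), Pygm (-1.12), Phka1 (-0.79) and Gys1 (-0.67). Of these, Gys1 (-0.40) and Phka1 (-0.53) were not called under total-count scaling, and Gys1 (-0.53) was not called with the library axis as a covariate. In the tibialis anterior 3 genes were lower at 24 months, where 3.54% of all genes were: Ppp1r3c (-0.92), Pygm (-0.63) and Phkg1 (-0.62). Of these 3, Ppp1r3c was called by edgeR, by DESeq2, under total-count scaling, with sample quality weights and with the library axis, and Pygm and Phkg1 by none of these. With a Bonferroni adjustment 0 of the 3 were called. In the soleus Phka1 was lower at 24 months (-0.65), where 2.64% of all genes were, and with sample quality weights it was not called (-0.58). Ppp1r3c was called earlier, at 18 months (-0.61, adjusted p = 0.00919) and 21 months (-0.72, adjusted p = 0.00183) in the gastrocnemius, where 0.691% and 1.53% of all genes were lower. It was also called at 21 months in the diaphragm (-0.70, adjusted p = 2.05e-05), where 0.557% of all genes were lower. The 18-month call in the gastrocnemius was lost without gastrocnemius 6-month replicate 3, 5 or 7 and under total-count scaling, and both gastrocnemius calls were lost with a Bonferroni adjustment. Ppp1r3a had lower values at 18 months, short of 1.5-fold, with a log2 change of -0.56 in the tibialis anterior (adjusted p = 0.000218), where 11 of 12 libraries lay below the young range. For the soleus it was -0.37 (adjusted p = 0.0137) and for the diaphragm -0.33 (adjusted p = 0.0356). At 21 months the same values were -0.12, 0.0038 and 0.17. On the library axis the 18-month medians of these muscles were -1.46, -1.01 and 0.072, and those of 6 months 0.22, 0.22 and 0.25. None of these 18-month values was called.

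When each gene was classed by models of its level on age in months (no trend, linear or logistic, by the Bayesian information criterion), 17 combinations of gene and muscle had both a call and a trend. In 16 of them the trend was logistic with an inflection point after 21 months, and all were decreases. The shares of all genes in these classes were not computed. The study reported that linear and late-logistic patterns prevailed among all age-related genes of rat muscle, so a late inflection is not particular to these genes. The exception among the 17 was Ppp1r3c in the diaphragm, in which the log2 level fell by 0.032 per month on a straight line. For Phka1 and Ppp1r3c in the tibialis anterior, Gyg1 in the soleus and Ppp1r3a in the soleus and diaphragm the fitted inflection was 27 months. That is the oldest age sampled, so these inflection points were not located. For Ppp1r3c in the gastrocnemius the criterion favored the logistic over the linear model by 2.39, near the limit for that class. Gbe1 in the tibialis anterior had no call, and its trend was logistic and upward with an inflection at 18.75 months.

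Muscles differed in the level of these genes before aging. Levels were compared at 6 months in 1 fit over all libraries, in which many genes differed. Between gastrocnemius and soleus 6 of the 8 genes were called (45.4% of all genes), between tibialis anterior and soleus 7 (42.9%), between soleus and diaphragm 5 (23.9%), and between tibialis anterior and gastrocnemius 1 (17.3%). The genes of breakdown were ordered soleus, diaphragm, then gastrocnemius and tibialis anterior. Phkg1 had a mean log2 CPM of 3.16 ± 0.22 (SD, n = 12) in the soleus, 5.31 ± 0.22 (n = 12) in the diaphragm, 7.06 ± 0.092 (n = 12) in the tibialis anterior and 7.26 ± 0.14 (n = 10) in the gastrocnemius. The gastrocnemius level was 17.4-fold that of the soleus (adjusted p = 2.08e-73). The difference between gastrocnemius and tibialis anterior was not under the threshold (adjusted p = 0.214) in this fit, which shares its estimate of spread over all 28 groups. Pygm was 8.38-fold higher in the gastrocnemius than in the soleus (adjusted p = 3.60e-72) and 3.12-fold higher in the diaphragm than in the soleus (adjusted p = 1.69e-34). Its difference between gastrocnemius and tibialis anterior was again not under the threshold (adjusted p = 0.334). Phka1 was 7.52-fold higher in the tibialis anterior than in the soleus (adjusted p = 2.59e-86). It was also higher in the tibialis anterior than in the gastrocnemius by 1.28-fold (adjusted p = 0.00357), under the fold limit.

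The genes of synthesis had another order. Gbe1 was highest in the soleus, 3.69-fold above the gastrocnemius (adjusted p = 4.20e-76) and 1.97-fold above the diaphragm (adjusted p = 1.57e-32). Gyg1 was also highest in the soleus, by 1.71-fold over the gastrocnemius, 1.69-fold over the diaphragm and 1.52-fold over the tibialis anterior, and the last of these was not called at 9 months. Gys1 differed by at most 1.25-fold between any pair of the 4 muscles, and no pair was called. Both phosphatase subunits were highest in the tibialis anterior. Ppp1r3a stood there 1.80-fold above the diaphragm, 2.27-fold above the gastrocnemius and 2.41-fold above the soleus, and the first of these was lost under total-count scaling. Ppp1r3c stood 2.57-fold above the diaphragm and 2.64-fold above the soleus. It was 1.26-fold above the gastrocnemius at 6 months, which was not under the adjusted p threshold (adjusted p = 0.0933). By 9 months this pair too was called (1.51-fold), with 2 of the 8 genes called (16.7% of all genes).

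At 27 months, a comparison added after the data were seen, fewer of the genes differed between the fast limb muscles and the diaphragm. Pygm stood at 12.99 ± 0.27 (mean log2 CPM ± SD, n = 12) in the diaphragm, 12.93 ± 0.45 (n = 11) in the gastrocnemius and 12.93 ± 0.70 (n = 12) in the tibialis anterior, with adjusted p of 0.636 and 0.682 for the differences from the diaphragm and 95% intervals of -0.31 to 0.17 and -0.29 to 0.18. Of the 8 genes, 5 were called between gastrocnemius and diaphragm at 6 months (37.3% of all genes) and 2 at 27 months (32.3% of all genes), namely Gys1 and Gbe1, both lower in the gastrocnemius. Between tibialis anterior and diaphragm 5 were called at 6 months (35.1% of all genes) and 1 at 27 months (27.4% of all genes), Phka1. Between gastrocnemius and soleus 5 were called at 27 months (34.0% of all genes), between tibialis anterior and soleus 5 (31.7%), between tibialis anterior and gastrocnemius 1 (10.4%), and between soleus and diaphragm 3 (27.9%). The soleus stayed low in the genes of breakdown, and at 27 months its Pygm was 4.40-fold, its Phka1 4.93-fold and its Phkg1 5.34-fold below the diaphragm.

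To ask whether the muscles changed by different amounts, the difference in the change from 6 to 27 months was tested for each pair of muscles. Against the diaphragm, the gastrocnemius differed in 6 genes (21.6% of all genes were called), the tibialis anterior in 5 (20.3%) and the soleus in 4 (11.9%). For Phkg1 the log2 change in the tibialis anterior minus that in the diaphragm was -1.55 (SE 0.19, adjusted p = 2.39e-13), and for Pygm the change in the gastrocnemius minus that in the diaphragm was -1.49 (SE 0.18, adjusted p = 8.47e-14). Gastrocnemius and tibialis anterior differed in 1 gene (7.32% of all genes), Ppp1r3a, with a log2 difference of -1.22 (SE 0.22, adjusted p = 1.55e-06). For Pygm these muscles differed by 0.16, with a 95% interval of -0.19 to 0.51. Ppp1r3a moved with the library axis in each muscle. Other genes did so too, among them Gyg1 (r of 0.74), Gbe1 (0.63) and Gys1 (-0.61) in the diaphragm. In the gastrocnemius Gbe1 had r of 0.60, Gys1 -0.52 and Gyg1 0.41. The adjusted permutation p of these r ranged up to 0.005. Differences between muscles were not fitted with the axis as a covariate. The soleus differed from the gastrocnemius in 4 genes (14.5% of all genes), of which Ppp1r3a (-0.70) was not called by edgeR (-0.54), and from the tibialis anterior in 4 (15.8%). Gbe1 fell in the soleus, and its change there was lower than in the diaphragm (-0.77, SE 0.10), gastrocnemius (-0.82, SE 0.10) and tibialis anterior (by 0.89, SE 0.10), where it did not fall. Gyg1 differed between soleus and diaphragm (-0.65, SE 0.071, adjusted p = 3.09e-15). Total-count scaling removed that call (-0.48), and also those of Gys1 for the soleus (-0.52) and tibialis anterior (-0.42) against the diaphragm.

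The ratio of 2 genes within a library does not depend on how libraries are scaled. The log2 ratio of Gys1 to Pygm counts was -4.46 ± 0.095 (SD, n = 12) at 6 months and -3.68 ± 0.35 (n = 12) at 27 months in the tibialis anterior, and 11 of the 12 old libraries lay above all young ones (difference 0.78, two-sided permutation test, adjusted p = 4e-05 over 12 tests). In the gastrocnemius it was -4.69 ± 0.14 (n = 10) and -3.95 ± 0.19 (n = 11), with all 11 old libraries above the young range (difference 0.73, two-sided permutation test, adjusted p = 4e-05). Both raw p were 1e-05, the smallest that 100000 permutations can give. In the soleus the ratio was -1.66 ± 0.080 and -1.65 ± 0.19 (n = 12 each, permutation test, adjusted p = 0.944), and in the diaphragm it differed by 0.20 (permutation test, adjusted p = 0.0176).

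The ratio of the 2 subunits of phosphorylase kinase shifted in opposite directions in the tibialis anterior and the soleus. The log2 ratio of Phka1 to Phkg1 went from 3.38 ± 0.087 to 3.95 ± 0.45 in the tibialis anterior (difference 0.57, permutation test, adjusted p = 7.2e-05) and from 4.37 ± 0.20 to 3.64 ± 0.24 in the soleus (difference -0.73, permutation test, adjusted p = 4e-05), with all 12 old soleus libraries below the young ones. In the gastrocnemius it went from 2.82 ± 0.20 to 3.05 ± 0.29 (permutation test, adjusted p = 0.0663), and this passed the threshold when medians replaced means. For the phosphatase subunits, the log2 ratio of Ppp1r3c to Ppp1r3a fell by 1.77 in the gastrocnemius (permutation test, adjusted p = 6e-05), by 0.80 in the tibialis anterior (permutation test, adjusted p = 0.00232) and by 0.49 in the soleus (permutation test, adjusted p = 0.00909). In the diaphragm it was -1.72 ± 0.17 and -1.68 ± 0.59 (permutation test, adjusted p = 0.944). This ratio does not depend on scaling, but Ppp1r3a moved with the library axis (r of 0.57 to 0.92 in the 4 muscles). Ppp1r3c had r with the axis between -0.19 (tibialis anterior) and 0.072 (diaphragm). The part of the axis in this ratio was not tested.

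**Figure D3:**
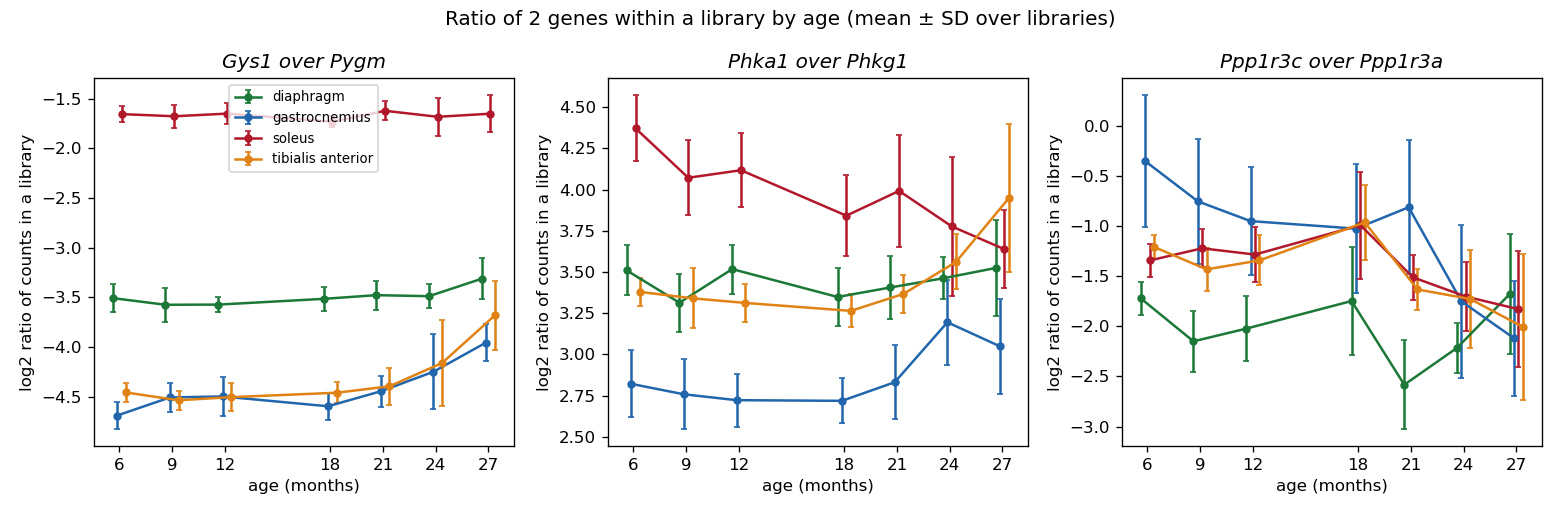
Log2 ratio of the counts of 2 genes within a library (vertical axis) against age in months, as group mean ± SD with one color per muscle, for Gys1 over Pygm, Phka1 over Phkg1 and Ppp1r3c over Ppp1r3a. The first ratio was -4.69 at 6, -4.45 at 21 and -3.95 at 27 months in the gastrocnemius, -4.46, -4.39 and -3.68 in the tibialis anterior at those ages, and at 6 and 27 months it was -1.66 and -1.65 in the soleus.

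Libraries of a single age and muscle also differed, and the genes differed together. After removal of age means, Pygm and Phkg1 had Pearson's r of 0.95 over the 85 tibialis anterior libraries (Spearman's rho 0.76, permutation adjusted p = 2.9e-05 for r over 112 pairs). Without the 2 libraries farthest from the median r was 0.92. The SD of Pygm in this muscle was 0.066 at 6 months, 0.72 at 24 months and 0.71 at 27 months. The oldest groups therefore weigh most in r, which was not computed within single ages. Pygm and Phka1 had r of 0.92 in the gastrocnemius (rho 0.86, n = 73) and 0.92 in the tibialis anterior (rho 0.77, n = 85), with the same adjusted permutation p. In the soleus all 28 pairs had a positive r at an adjusted permutation p under 0.05, from 0.30 to 0.81, the highest between Gyg1 and Ppp1r3c (rho 0.62, n = 84, r of 0.74 without the 2 farthest libraries). By the same threshold 15 pairs of 28 were positive and 1 negative in the gastrocnemius, 16 and 0 in the tibialis anterior, and 11 and 1 in the diaphragm. Under total-count scaling these counts were 13 and 2, 12 and 7, and 10 and 6, and in the soleus 25 and 0. Gbe1 stood apart from Pygm outside the soleus, with r of -0.35 in the diaphragm (rho -0.21), -0.13 in the gastrocnemius (rho -0.20) and 0.063 in the tibialis anterior (rho -0.22), and r of 0.64 in the soleus (rho 0.59). The adjusted permutation p of these r were 0.0084, 0.35, 0.64 and 2.9e-05. Libraries share depth and composition, and under total-count scaling the median r in the tibialis anterior was 0.19 in place of 0.43.

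**Figure D4:**
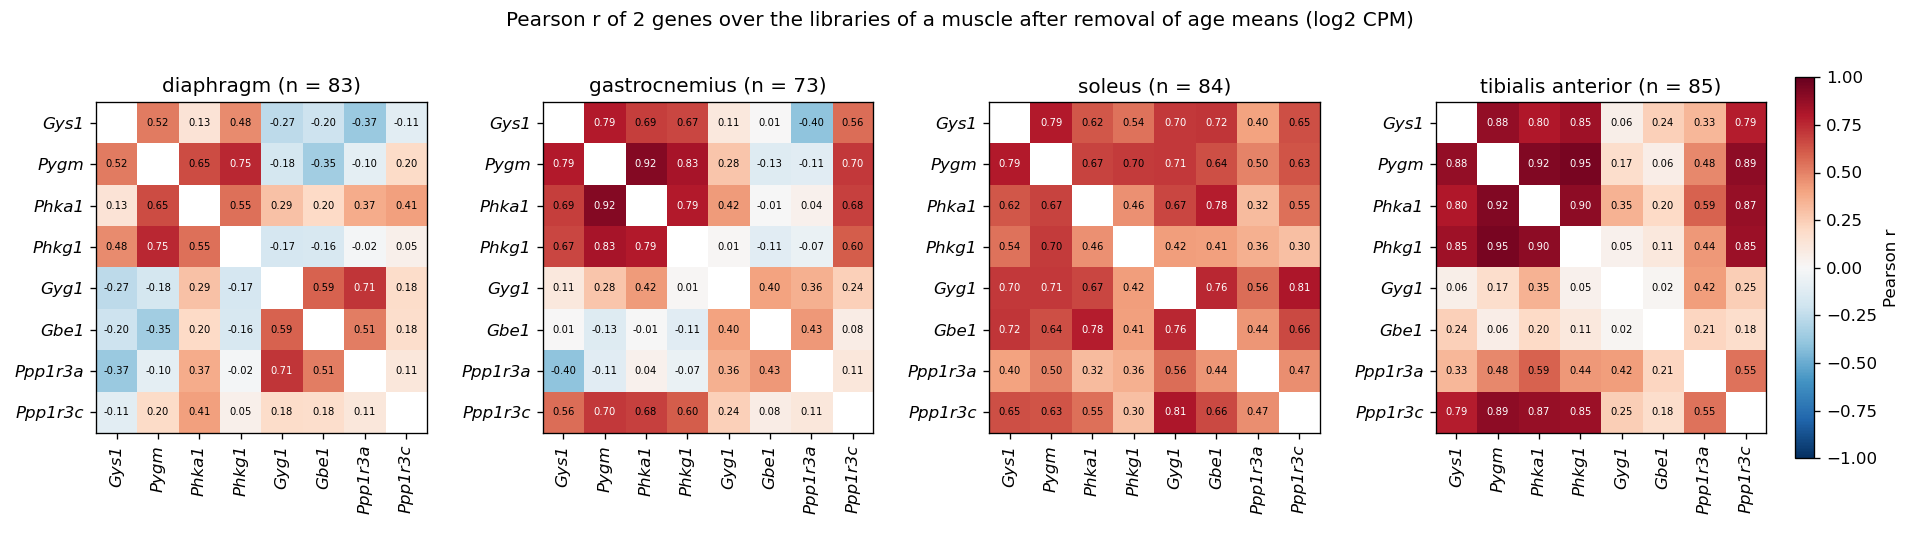
Pearson's r of each pair of the 8 genes over the libraries of a muscle, in log2 CPM after removal of age means, one panel per muscle with its number of libraries. Pygm, Phka1, Phkg1, Gys1 and Ppp1r3c form a block of high r in the tibialis anterior and gastrocnemius (Pygm with Phkg1 at 0.95 and 0.83), while in the soleus every pair is positive.

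Several of the genes moved with markers of fast fibers in the fast limb muscles, and the genes of breakdown did so in the diaphragm too. The mean log2 CPM of 8 fast fiber genes had a median of 13.41 at 6 months and 12.68 at 27 months in the tibialis anterior (4 of the 8 lower and 0 higher at 27 months), 13.61 and 12.89 in the gastrocnemius (4 lower, 0 higher), 11.70 and 12.04 in the diaphragm (0 lower, 1 higher) and 5.80 and 8.11 in the soleus (0 lower, 8 higher). Over tibialis anterior libraries, after removal of age means, this score had r of 0.97 with Pygm (rho 0.86), 0.93 with Phkg1 (rho 0.74) and 0.91 with Phka1 (rho 0.76), each with an adjusted permutation p of 3.6e-05 over 128 relations and n = 85. Without the 2 farthest libraries the 3 values were 0.95, 0.87 and 0.86. The same held beyond the genes of breakdown, with r of 0.84 for Gys1 (rho 0.47) and 0.85 for Ppp1r3c (rho 0.53), at the same adjusted permutation p, and 0.76 and 0.75 without the 2 farthest libraries. The widely spread oldest libraries weigh most in these r. In the diaphragm (n = 83) the score had r of 0.77 with Pygm (rho 0.80), 0.65 with Phkg1 (rho 0.62) and 0.65 with Phka1 (rho 0.68), at that adjusted permutation p. Its r there was 0.18 with Gys1 (adjusted permutation p = 0.14) and 0.18 with Ppp1r3c (adjusted permutation p = 0.18). With Gbe1 it was -0.36 in the diaphragm (adjusted permutation p = 0.00017) and -0.32 in the gastrocnemius (adjusted permutation p = 0.012). In the soleus, where the fast score was higher at 27 months by more than in any other of the 4 muscles, its r with Pygm was -0.079 (rho 0.039, adjusted permutation p = 0.57, n = 84), that with Phka1 -0.11 (rho -0.079, adjusted permutation p = 0.38) and that with Phkg1 0.014 (rho 0.11, adjusted permutation p = 0.93). The other soleus r were negative: Ppp1r3c -0.41 (adjusted permutation p = 9.6e-05), Gyg1 -0.40 (0.00022), Gys1 -0.29 (0.012), Gbe1 -0.28 (0.015) and Ppp1r3a -0.20 (0.073). The mean log2 CPM of 7 slow fiber genes had r there of 0.68 with Pygm (rho 0.56) and 0.67 with Gys1 (rho 0.49), each at an adjusted permutation p of 3.6e-05, and 0.64 and 0.57 without the 2 farthest libraries. This slow score had medians of 7.165 at 6 months and 6.58 at 27 months in the tibialis anterior (2 of the 7 lower, 0 higher). In the soleus they were 11.22 and 10.85 (1 lower, 0 higher). In the gastrocnemius they were 9.19 and 9.45 and in the diaphragm 10.06 and 10.21 (0 lower and 0 higher in each). All 5 genes of a denervated fiber list (Chrnd, Chrng, Musk, Ncam1 and Myog) were higher at 27 months in each muscle. That score went from a median of 1.83 to 6.45 in the tibialis anterior, 2.51 to 6.06 in the gastrocnemius, 4.12 to 6.02 in the soleus and 3.13 to 4.55 in the diaphragm. Its r with Pygm was -0.62 in the tibialis anterior (rho -0.55, n = 85), -0.58 in the gastrocnemius (rho -0.42, n = 73) and -0.73 in the soleus (rho -0.57, n = 84), at an adjusted permutation p of 3.6e-05. In the diaphragm it was -0.30 (rho -0.19, n = 83, adjusted permutation p = 0.058). Without the 2 farthest libraries the 4 values were -0.59, -0.56, -0.63 and -0.23. Markers of macrophages (5 of 5) and adipocytes (4 of 5) were also higher at 27 months in the gastrocnemius and tibialis anterior. In the soleus 4 of 5 adipocyte markers (median score 4.23 and 5.33) and 1 of 5 macrophage markers were higher, and in the diaphragm 0 of either list. The part of these scores in the changes of the glycogen genes was not tested.

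Other genes of the pathway were followed through a list of 44 genes, of which 42 are in the files and 41 were tested in at least 1 muscle. At 27 months 12 of 40 were lower and 2 higher in the tibialis anterior, 8 of 40 lower and 2 higher in the gastrocnemius, 3 of 41 lower and 2 higher in the soleus and 2 of 41 lower and 0 higher in the diaphragm. Over all genes tested, the shares lower and higher were 10.4% and 17.2% for the tibialis anterior, 7.76% and 15.1% for the gastrocnemius, 5.78% and 9.21% for the soleus, and 4.25% and 3.27% for the diaphragm, so the list counts of soleus and diaphragm lay near the shares lower. The direction of this list depends on the scaling: with total counts the tibialis anterior had 6 lower and 7 higher, the gastrocnemius 1 lower and 7 higher, and the soleus 2 lower and 4 higher. The median log2 change of all genes moved under that scaling by 0.32 (tibialis anterior), 0.28 (gastrocnemius), 0.15 (soleus) and 0.041 (diaphragm). The median log2 change of the list was -0.18, -0.22, -0.085 and -0.011 in those muscles, with the main scaling. Without gastrocnemius 27-month replicate 9, 5 list genes in place of 10 were called in that muscle.

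Ugp2, which makes the UDP-glucose that synthase uses, was lower in all 4 muscles, in the diaphragm only without the library axis as a covariate (-0.23 with it, not called). Its soleus libraries ran from 432 to 569 CPM (median 463) at 6 months and from 99.5 to 285 (median 155) at 27 months, a log2 change of -1.58 (SE 0.13, adjusted p = 1.69e-18). The log2 change was -1.43 for the tibialis anterior, -0.66 for the diaphragm and -0.69 for the gastrocnemius, whose call was lost under total-count scaling (-0.40). Pgm1, which interconverts glucose 1-phosphate and glucose 6-phosphate, was lower in the gastrocnemius (-0.77) and tibialis anterior (-0.60). Under total-count scaling neither Pgm1 value was called, and that of the tibialis anterior was also not called by edgeR or DESeq2.

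The remaining subunits of phosphorylase kinase did not all follow Phka1 and Phkg1. Phkb, the beta subunit, was lower in the tibialis anterior (-0.84) and gastrocnemius (-0.60), and neither was called under total-count scaling. Phka2, the alpha subunit best known from liver, was higher in the tibialis anterior, where its medians of 1.24 and 2.53 CPM were small and the log2 change was 1.01 (SE 0.12, adjusted p = 7.68e-12). Calm3, a gene for the calmodulin that serves as the delta subunit, was lower in the tibialis anterior (-1.04) and gastrocnemius (-0.87).

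Among the regulators, Prkaa2, a catalytic subunit of AMP-activated kinase, was lower in the tibialis anterior (-1.41, SE 0.11) and gastrocnemius (-0.59). The gastrocnemius value was not called in 13 of 21 fits that left out a library, nor under total-count scaling (-0.30). Prkaa1, the other catalytic subunit, was higher in the gastrocnemius (0.62, but not called at 0.54 with sample quality weights, 0.44 with the library axis or 0.55 with the 9 lowest-numbered replicates), and Prkag3, a regulatory subunit known from fast muscle, was higher in the soleus, from a range of 14.2 to 23.4 CPM at 6 months to 19.4 to 176 at 27 months and with a log2 change of 2.22 (SE 0.22, adjusted p = 5.43e-14). Ppp1cb, a catalytic subunit of protein phosphatase 1, was lower in the tibialis anterior (-0.89), diaphragm (-0.65) and soleus (-0.59), and Ppp1r3b, a further targeting subunit, in the tibialis anterior (-0.65). Of these, the Ppp1r3b value and the Ppp1cb values of tibialis anterior and soleus were not called under total-count scaling. The soleus value of Ppp1cb was also not called by edgeR (-0.57), by DESeq2 (-0.57), with sample quality weights (-0.58), with the library axis as a covariate (-0.47) and in 6 of 24 fits that left out a library, and its diaphragm value was not called with the library axis (-0.26). Prkar2a, a regulatory subunit of protein kinase A, was lower in the tibialis anterior (-0.96) and gastrocnemius (-0.61, but not called at -0.33 under total-count scaling, -0.57 with the 9 lowest-numbered replicates or -0.58 with the library axis). Epm2a, the glycogen phosphatase laforin, was lower in the tibialis anterior (-0.95), and Stbd1, a glycogen-binding protein, was higher in the soleus (1.02, from a median of 37.4 to 70.4 CPM). Of glucose entry, Slc2a4 (GLUT4) was lower in the gastrocnemius (-0.63, but not called at -0.34 under total-count scaling, -0.55 with sample quality weights, -0.48 with the library axis or -0.51 with the 9 lowest-numbered replicates), Slc2a1 (GLUT1) was higher in the tibialis anterior (1.43) and gastrocnemius (0.72), and Hk2, which phosphorylates glucose, was lower in the soleus (-0.81). Pgm2l1, a relative of Pgm1, was lower in the tibialis anterior (-0.91), which became -0.58 and was not called under total-count scaling.

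**Figure D5:**
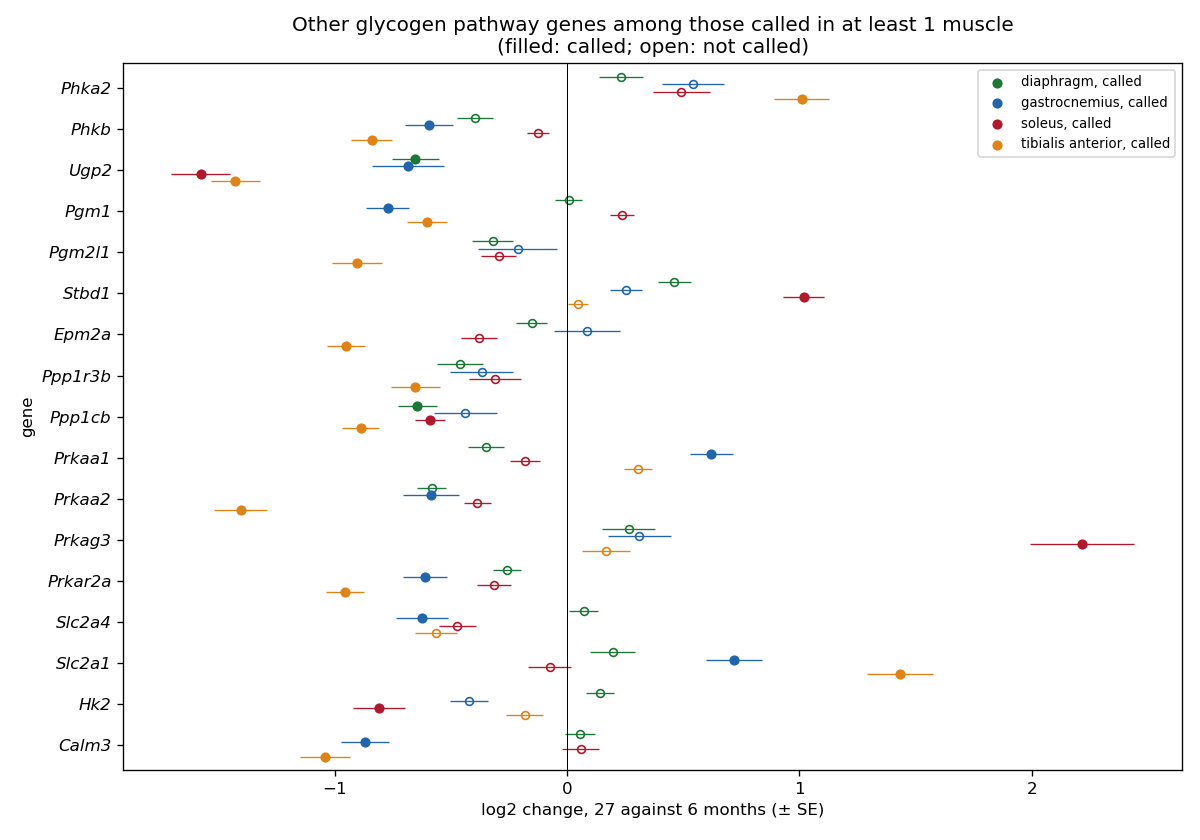
Log2 change ± SE at 27 against 6 months (horizontal axis) of 17 of the 19 list genes called in at least 1 muscle, one color per muscle, filled where called and open where not. Ugp2 is filled on the lower side in all 4 muscles (its diaphragm call was lost with the library axis as a covariate), and Prkag3 in the soleus reaches 2.22.

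The genes with the most similar patterns were sought among 10412 genes by Pearson's r over the 28 group means, which share muscle and age, so r is a description. Pygm was closest to Pfkm, the muscle phosphofructokinase of glycolysis (0.998), Phkg1 (0.995) and Echdc2 (0.995). Phkg1 was closest to Pfkm (0.996), Pygm (0.995) and Mdp1 (0.995), and Phka1 to Nkiras1 (0.992), Abcc4 (0.990) and Idh3a (0.990). Gys1 was closest to Ern1 (0.950), Pou6f1 and Tomm40, Gyg1 to Bnip3 (0.983), Ino80c and Arhgef28, and among the genes close to Gbe1 were Hp1bp3 (0.977) and Arl2bp (0.976). Ppp1r3a was closest to Zfp667 (0.981), Usp15 and Dnm1l, and Ppp1r3c to Fam53a (0.972), Lsm12 and Vldlr.

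When each muscle was centred first, leaving the pattern over age, Pygm was closest to Aldoa (0.989), Pnrc1 (0.988) and Gpi (0.987), of which Aldoa and Gpi encode enzymes of glycolysis. Phkg1 was closest to Eml1 (0.985), Pygm (0.985) and Pfkm (0.984), and Phka1 to St8sia5 (0.984), Ppp1r1a and Ybey. Gys1 was closest to Ppp5c (0.984), Atp5e and Ndufb11, and both of the latter encode parts of mitochondrial oxidative phosphorylation complexes. Gyg1 was closest to Bnip3 (0.967), Ino80c and Oxct1, Gbe1 to Acadl (0.953), Bzw2 and Ppp2ca, Ppp1r3a to Pum2 (0.978), Zfp667 and Kbtbd3, and Ppp1r3c to Tarsl2 (0.971), Ttc19 and Asb11.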

How the data were processed

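Strand-specific total RNA-seq libraries (rRNA removed, NovaSeq, paired reads) were processed by the authors in ArrayStudio (version not given in the sources used here) against the rat B6.0 genome with a RefSeq-based gene model, and raw counts per gene were deposited for each library. Lines of the same symbol were summed (494 symbols), which left 17315. Each muscle was fitted separately with limma-voom (limma 3.58.1, R 4.3.3) on TMM factors from edgeR 4.0.16, over genes kept by filterByExpr (minimum count 10), with each age compared with 6 months. CPM values use these factors and a prior count of 0.5. Muscles were compared in 1 fit of the 28 groups. Each replicate of a group is a separate rat. Alternatives were edgeR's quasi-likelihood test, DESeq2 1.42.0, other scalings, filters, weights and thresholds, and leaving out each library of 6 and 27 months. The age fits were checked on simulated counts. A called gene has an adjusted p under 0.05 and over 1.5-fold change. The text names the 8 genes, list genes called at 27 months in at least 1 muscle, the 3 most similar genes by each measure, and Myh7 and Myh4. A few of these genes are not reported here. Members and lists were chosen with earlier results of these data known. Depth was 17.6 M to 85.3 M counts (M, mega), and intervals are 95% from the fit.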

Additional observations from a re-analysis of the deposited data

Results flagged for a closer look

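Results were singled out where the change from 6 to 27 months differed between a pair of muscles by a test of the difference itself (limma-voom, adjusted p under 0.05 and over 1.5-fold), which held for 24 of 48 comparisons of the 8 genes. Of all genes tested, 7.32% (tibialis anterior and gastrocnemius) to 21.6% (gastrocnemius and diaphragm) were called for a pair of muscles. Each value is the difference of the 2 log2 changes. Relative to the diaphragm, the gastrocnemius change was lower for Gys1 (-0.95), Pygm (-1.49), Phka1 (-1.23), Phkg1 (-1.45) and Ppp1r3c (-1.002) and higher for Ppp1r3a (0.81). The soleus change was lower than that of the diaphragm for Gys1 (-0.69), Phka1 (-1.01), Gyg1 (-0.65) and Gbe1 (-0.77). The tibialis anterior change was lower than that of the diaphragm for Gys1 (-0.75), Pygm (-1.33), Phka1 (-0.97), Phkg1 (-1.55) and Ppp1r3c (-1.25). Soleus minus gastrocnemius gave 1.00 for Pygm, 1.20 for Phkg1, -0.82 for Gbe1 and -0.70 for Ppp1r3a, the last not called by edgeR (-0.54). Tibialis anterior minus soleus gave -0.83 for Pygm, -1.29 for Phkg1, 0.89 for Gbe1 and -0.83 for Ppp1r3c. Tibialis anterior minus gastrocnemius gave -1.22 for Ppp1r3a. The Ppp1r3a differences were not fitted with the library axis, with which this gene moved, as a covariate. The gastrocnemius libraries carry their own series of running numbers, which cannot be told apart from the muscle. Of 24 sets of libraries of a gene in groups of 9 or 10, 0 held a library far from the others by Dixon's test. Those groups are the gastrocnemius at 6, 21 and 24 months. The larger groups, with all those of the other muscles and of 27 months, were not tested in this way.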

How the results depend on the processing

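Calls of the 8 genes at 27 months depended on scaling and on the fold limit more than on the test. With a 2-fold limit the counts of called genes became 0 at 21 months and 0 at 27 months in the diaphragm, 0 at 18 months, 0 at 21 months and 3 at 24 months in the gastrocnemius, 0 at 24 months and 1 at 27 months in the soleus, and 0 at 24 months in the tibialis anterior. The pathway list then had 5 called genes in the tibialis anterior, 3 in the soleus and 0 each for gastrocnemius and diaphragm, where the 1.5-fold limit gave 14, 5, 10 and 2. Total-count scaling left 0 called genes at 18 months and 4 at 27 months in the gastrocnemius, 2 at 27 months in the soleus, 1 at 24 months in the tibialis anterior, 2 with a trend in the soleus and 2 for the difference in change between soleus and diaphragm. It turned Gyg1 to 0.013 in the gastrocnemius and 0.019 in the tibialis anterior, and in the diaphragm Phka1 to 0.025 and Phkg1 to 0.020. A Bonferroni adjustment left 0 at 18 and 0 at 21 months in the gastrocnemius and 0 at 24 months in the tibialis anterior. Both edgeR and DESeq2 gave 1 gene at 24 months in the tibialis anterior and 4 list genes in the diaphragm. Sample quality weights gave 0 at 24 months in the soleus and 1 at 24 months in the tibialis anterior, and the 9 lowest-numbered replicates gave 1 at 21 months in the tibialis anterior. The library axis as a covariate, added after the data were seen, gave 1 at 24 months in the tibialis anterior, and for the diaphragm 1 at 27 months and 0 list genes. With it, at 27 months, Ppp1r3a in the soleus (-0.43) was not called and Gys1 in the tibialis anterior (-0.61, adjusted p = 4.15e-10) was.

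Some values changed sign. Pygm in the diaphragm was -0.0012 with the 9 lowest-numbered replicates, -0.049 against 9 months and -0.10 with the library axis. Phkg1 in the diaphragm was 0.0026 by edgeR, 0.012 by DESeq2 and 0.0097 with quality weights. With the library axis Phka1 was 0.042 and Gyg1 0.047 in the diaphragm. Ppp1r3a in the gastrocnemius was -0.071 by edgeR, -0.077 by DESeq2, -0.10 with the 9 lowest-numbered replicates, -0.0030 with no filter on low counts, -0.46 with the library axis and -0.23 with quality weights. With medians in place of means, the log2 ratio of Phka1 to Phkg1 differed by -0.10 in the diaphragm and 0.32 in the gastrocnemius, and that of Ppp1r3c to Ppp1r3a by -0.081 in the diaphragm. At 27 in place of 6 months, 2 genes differed in level between gastrocnemius and diaphragm, 3 between soleus and diaphragm and 1 between tibialis anterior and diaphragm. Pygm then differed by -0.067 between gastrocnemius and diaphragm and by -0.057 between tibialis anterior and diaphragm, and Ppp1r3a by -0.033 between tibialis anterior and gastrocnemius. At 9 in place of 6 months 2 genes differed between tibialis anterior and gastrocnemius. The cause of these shifts was not tested.

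Leaving out each library of 6 and 27 months in turn (93 fits) changed no call of the 8 genes at 27 months. The count at 18 months in the gastrocnemius ranged from 0 to 1, and the list counts from 2 to 3 in the diaphragm, 5 to 11 in the gastrocnemius, 4 to 6 in the soleus and 12 to 15 in the tibialis anterior. With the replicate number as a block the calls of the 8 genes did not change and 1 list call was lost, Prkaa2 in the gastrocnemius (-0.57). The labels do not say whether a number marks an animal, and the fits took libraries as independent. Same-numbered libraries of different muscles at one age had a median r of 0.13 in their deviations and other numbers -0.017, with 260 of 468 same-numbered pairs over 0.1. Of 468, 167 matched best with their own number, a hint from the data and not from the design. RLE size factors changed no call. The lowest of the 8 genes was Phkg1 in the soleus, with medians of 10.2 and 8.41 CPM, so depth limits its precision most.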
